A study of Mus musculus with 175 samples.

Results

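Single P2- CMPs were compared with single P2+ MEPs of the fetal liver. This is the pair of populations that lie between the erythroid P2- MEPs and the multipotent P2+ CMPs in the study's order of 4. The members were chosen by the sort label of each cell. They were 27 P2- CMPs and 47 P2+ MEPs, 74 of the 175 deposited cells, after 1 P2+ MEP with 27.9% unmapped reads had been left out. All cells, those of both populations alike, came from livers at 14.5 days post fertilization of C57BL/6 mice crossed with ICR. The livers of a pair of litters were pooled, so that each population counts as 1 sample, within which cells are no replicates of one another. Every liver carried a reporter in which human CD4 (hCD4) on the cell surface marks use of P2, the proximal promoter of Runx1, and a GFP reporter. The labels write the genotype as Runx1 P2-GFP::P2-hCD4/+ in one field and as P1-GFP::P2-hCD4/+ in another. MEPs (megakaryocyte/erythroid progenitors) and CMPs (common myeloid progenitors) were both Lineage-, Sca1-, c-Kit+, CD16/32 low, CD41- and CD150+. They were parted by CD34, which MEPs lacked and CMPs carried, and then by hCD4. The pair therefore differed in 2 sort criteria at once, CD34 and hCD4, and no value here can be assigned to one of them alone. Low and high, the words the labels use for CMPs, were read as P2- and P2+.

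In the myeloid hierarchy, progenitors that can still form several lineages transcribe stem cell genes together with low levels of genes of several lineages. Commitment to red cells is driven by GATA1 and KLF1, which turn on heme synthesis, membrane skeleton and globin genes. Megakaryocytes, the source of platelets, use GATA1 as well, together with FLI1 and RUNX1, and KLF1 and FLI1 oppose each other. PU.1, the product of Spi1, directs granulocytes and monocytes and opposes GATA1. The fetal liver is the main site of red cell formation at this stage.

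Smart-Seq2, in a modified form, gave 1 full-length cDNA library per cell. It has no molecular identifiers, so that PCR copies count as separate reads. Total reads per cell were between 625398 and 2546173 in P2+ MEPs and between 648602 and 2415133 in P2- CMPs, and the reads on mouse genes summed to 31573710 and 18334696. A P2+ MEP had reads on 5414 to 7432 genes (median 6415) and a P2- CMP on 5631 to 7617 (median 6754). ERCC spike-in RNA took a median of 2.48% and 2.14% of counted reads. A population's pooled level is the sum of a gene's reads over its cells, per 1000000 of its reads on mouse genes (pooled CPM), with an exact 95% Poisson interval in parentheses. Differences are the log2 ratio of pooled CPM, P2- CMP over P2+ MEP, with an exact conditional binomial interval. For the share of cells in which a gene was read, every cell was first thinned to 100000 reads, here called equal depth, and the interval is Clopper-Pearson. The Poisson and binomial intervals speak of the counting error of reads alone, and the Clopper-Pearson intervals of the number of cells. None of them covers differences between samples, and since neither population had a second sample no test was made. In pooled levels, fewer cells that carry a gene and less of its RNA per cell cannot be told apart, and the values per cell are therefore given beside them. The cell subtype label of 1 P2- CMP names MEP. This cell was kept, and the counts without it are given below. The labels give no plate, so that a plate and a population cannot be told apart.

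The stem and multipotent genes and the granulocyte/monocyte genes were mostly higher in P2- CMPs, and the red cell membrane genes were mostly higher in P2+ MEPs. Of 9469 genes with a mean pooled CPM of at least 5 and a read in at least 8 of the 74 cells, 1051 (11.1%) were at least 2-fold higher in P2- CMPs and 583 (6.16%) at least 2-fold higher in P2+ MEPs. The median log2 ratio of all 9469 genes was 0.02. When the cell of highest CPM was left out of the higher population for each gene, which can only lower the level there, 649 and 469 genes passed. When it was left out of both populations, an alternative chosen after seeing the data, 1060 and 914 did. Without the cell of conflicting label the counts were 1054 and 630. All lists were written with earlier results of these data known, so that their counts describe the pair and are set beside the shares of all genes.

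**Figure D1:**
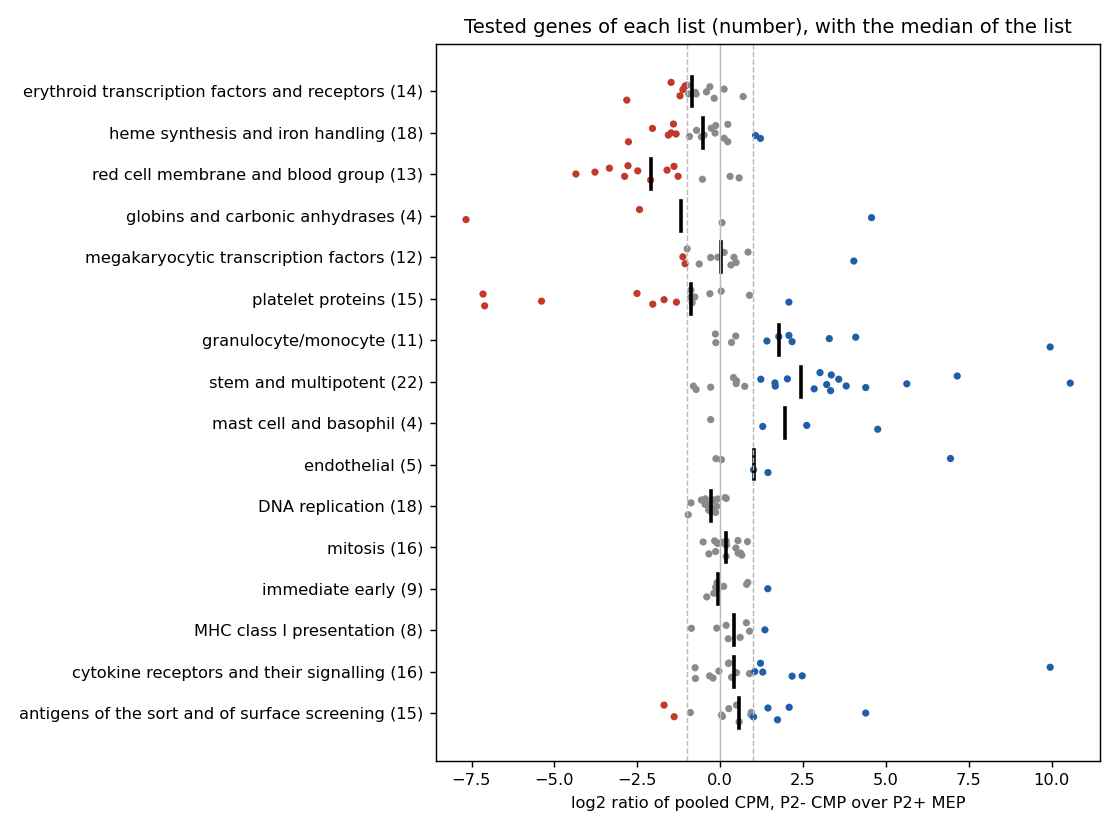
Each point is a gene that passed the limits on level and cells, placed on the log2 ratio of pooled CPM, P2- CMP over P2+ MEP, with 1 row per gene list and the number of its tested genes in parentheses. Black bars are list medians, dashed lines mark 2-fold, blue points are at least 2-fold higher in P2- CMPs and red points in P2+ MEPs. The stem and multipotent list has its median at 2.43 and the red cell membrane list at -2.10, whereas the DNA replication and mitosis lists lie within 2-fold.

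Among the erythroid transcription factors and receptors, 5 of 14 tested genes were at least 2-fold higher in P2+ MEPs and 0 in P2- CMPs, with a list median of -0.85. Klf1, the erythroid Krüppel-like factor, ranged from 0 to 846 CPM per cell (median 210.9) in P2+ MEPs and from 0 to 343.7 CPM per cell (median 7.53) in P2- CMPs. The ranges overlapped, but 13 of 27 P2- CMPs and 40 of 47 P2+ MEPs had a read of it at equal depth. Pooled, Klf1 was at 243.5 CPM (238.1 to 248.999) and 87.4 CPM (83.1 to 91.8), which gives a log2 ratio of -1.48 (-1.56 to -1.40). Gata1 was read in every P2+ MEP and ranged from 25.99 to 626 CPM per cell (median 178) there, against from 0 to 426 CPM per cell (median 51.7) in P2- CMPs, of which 55.6% had a read. The log2 ratio of Gata1 was -1.21 (-1.28 to -1.14). Cited4, a transcriptional co-regulator, had the lowest ratio of the list, -2.81 (-2.95 to -2.69), and was read in 40.7% (22.4 to 61.2%) of P2- CMPs and 97.9% (88.7 to 99.9%) of P2+ MEPs. The haematopoietic factor Tal1 and the repressor Gfi1b had ratios of -1.06 and -1.12, and without its highest cell Tal1 was at -0.99, just inside 2-fold. With equal weight for every cell, Gata1, Tal1 and Gfi1b were all inside it, at -0.93, -0.88 and -0.78. Zfpm1, which encodes the GATA1 partner FOG1, was at -0.99, the transferrin receptor gene Tfrc at -0.95 and the erythropoietin receptor gene Epor at -0.75, all within 2-fold. Lmo2 and Myb, shared by most progenitors, were at -0.72 and -0.18. Foxo3 was the list's only tested gene over 0.5 in the other direction, at 0.70.

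Of 18 tested genes of heme synthesis and iron handling, 6 were at least 2-fold higher in P2+ MEPs and 2 in P2- CMPs (median -0.52). Alas1, the widely used first enzyme of the pathway, was higher in P2- CMPs, at 51.4 CPM (48.1 to 54.8) against 22.1 CPM (20.5 to 23.8) in P2+ MEPs, with a ratio of 1.22 that was 0.77 without its highest cell. Its erythroid counterpart Alas2 was close to 0 in both, at 4.18 CPM in P2+ MEPs and 0.545 in P2- CMPs, and was not among the tested genes. Uros also counted as higher in P2- CMPs but depended on 1 cell, since its ratio of 1.07 was 0.15 without it. The second enzyme of the pathway, Alad, ranged from 71.6 to 1869 CPM per cell (median 394) in P2+ MEPs and from 0 to 738 CPM per cell (median 161) in P2- CMPs, and its ratio was -1.41 (-1.46 to -1.36). Of the later enzymes, Cpox was 2.95-fold and Fech, which inserts the iron, 2.78-fold higher in P2+ MEPs, while Urod (-0.71) and Ppox (-0.48) were within 2-fold. Blvrb, a biliverdin reductase of red cells, had the largest difference of the list, 6.80-fold higher in P2+ MEPs, at 184 CPM (179 to 188) against 26.998 CPM (24.7 to 29.5). Steap3, a ferrireductase that reduces iron taken up with transferrin, was 2.51-fold higher there and was read in 51.9% of P2- CMPs and 93.6% of P2+ MEPs. The ferritin chains Fth1 and Ftl1, present in every cell of the pair, were at 0.12 and -0.13.

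The red cell membrane and blood group genes differed most among the erythroid lists. Of 13 tested, 10 were at least 2-fold higher in P2+ MEPs and 0 in P2- CMPs (median -2.10), and their summed level per cell had a median of 565 CPM in P2+ MEPs (range 163 to 1838) and of 401 CPM in P2- CMPs (range 46.1 to 875). Ermap, an erythroid membrane protein of the Scianna blood group, was read in 25 P2+ MEPs, up to 489 CPM, and in 3 P2- CMPs, up to 163. Its ratio was -3.78 (-4.02 to -3.54). The water channel Aqp1 (-4.35), the adducin Add2 (-3.34), the ankyrin Ank1 (-2.88), the Rh-associated glycoprotein Rhag (-2.78) and the Kell protein Kel (-2.49) were low in both, at 18.9 to 40.3 CPM in P2+ MEPs and 1.1999 to 7.20 in P2- CMPs. The beta spectrin gene Sptb was among the 10, at -2.10, as was Smim1, of the Vel blood group, at -1.39. With equal weight Aqp1 was at -3.30 and Kel at -1.55, and without the cell of conflicting label Ank1 was at -3.92. Atp1b2 depended on 1 cell (-1.27 with it, -0.97 without). Epb41, the protein 4.1 gene used in many cell types, was within 2-fold at -0.53, as was the widely carried Cd24a at 0.57. Markers of later red cells were at or near 0 in both: band 3 (Slc4a1) at 0.222 CPM in P2+ MEPs and 0 reads in P2- CMPs, and Epb42 and Icam4 with 0 reads in either, so that levels under 0.0950 CPM in P2+ MEPs and under 0.164 CPM in P2- CMPs could have been missed.

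Carbonic anhydrase 1 and the beta globins varied strongly from cell to cell. Car1 was read in 29 of 47 P2+ MEPs, up to 2372 CPM with a median of 68.9, and in 6 of 27 P2- CMPs, up to 872. It was not read in P2+ CMPs and was lower in P2- MEPs, at 111 CPM pooled, than in P2+ MEPs, at 299.7. Its ratio was -2.43 (-2.53 to -2.34), and -1.95 without the highest cell. Car2, which progenitors of several lineages use, was at 0.06. The adult beta globin genes Hbb-bs and Hbb-bt are near-identical copies, so that the count of each is uncertain, and they went in opposite directions. Hbb-bs was at 111 CPM (107 to 115) in P2+ MEPs and 0.545 CPM (0.262 to 1.003) in P2- CMPs, and Hbb-bt at 9.79 CPM (8.73 to 10.9) and 232.2 CPM (225.3 to 239.3). Of the reads on the pair of genes, 91.9% were on Hbb-bs in P2+ MEPs (95% interval 91.0 to 92.7%) and 0.234% in P2- CMPs (0.112 to 0.430%). The labels name no plate, embryo or beta globin haplotype, so that a difference in any of these cannot be told apart from one between the populations, and this limit also holds for the places of Hbb-bs and Hbb-bt among the lowest and highest ratios. Summed over both, globin was 121 CPM in P2+ MEPs and 232.8 in P2- CMPs. Alpha globin was near 0, Hba-a1 at 1.77 and 0.109 CPM.

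Part of the platelet genes were higher in P2+ MEPs. Of 15 tested platelet genes, 7 were at least 2-fold higher in P2+ MEPs and 1 in P2- CMPs (median -0.89). Gp1ba, Gp1bb, Gp5 and Gp9 encode the receptor of von Willebrand factor. Gp1ba was read in 22 P2+ MEPs and 2 P2- CMPs, Gp1bb in 15 and 1, and Gp5 in 39 and 11. Their log2 ratios were -5.39 (-6.20 to -4.68), -7.10 (-8.98 to -5.74) and -2.03 (-2.20 to -1.86), with only 16 and 4 reads of the first pair in P2- CMPs. Gp9 differed less. It ranged from 0 to 552 CPM per cell (median 4.20) in P2+ MEPs and from 0 to 137 CPM per cell (median 0) in P2- CMPs, was read in 51.1% and 48.1% of cells at equal depth, and had a ratio of -0.84 (-0.97 to -0.72). Itga2b encodes CD41, which the sort required to be absent from the surface of both populations. Its RNA was nevertheless read in 40.7% (22.4 to 61.2%) of P2- CMPs and 68.1% (52.9 to 80.9%) of P2+ MEPs, at 32.02 CPM (29.5 to 34.7) and 103 CPM (99.8 to 107). Treml1 and the thrombin receptor gene F2rl2 were 2.49-fold and 5.68-fold higher in P2+ MEPs. Thbs1, which encodes a granule protein, had a ratio of -7.15 from 8 P2+ MEPs at equal depth, the highest of them at 2058 CPM. Vwf was the gene higher in P2- CMPs, at 2.08, but was read in only 11.1% of them and was at 1.004 without the highest cell. Late platelet genes were close to absent, Pf4 at 1.71 CPM in P2+ MEPs and 0.927 in P2- CMPs, with 0 reads of Ppbp and Itgb3 in either.

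Of the 12 megakaryocytic transcription factors, all tested, 9 were within 2-fold, Tal1 and Gfi1b were higher in P2+ MEPs as given above, and Erg was higher in P2- CMPs. The list median of 0.03 was -0.09 with DESeq2 size factors. Fli1 was at 106 CPM (101 to 111) in P2- CMPs and 79.3 CPM (76.2 to 82.5) in P2+ MEPs, a ratio of 0.42. Runx1, counted over transcripts of both promoters, was at 71.5 CPM (67.7 to 75.5) and 56.98 CPM (54.4 to 59.7) (ratio 0.33), with the P2 reporter off in the former and on in the latter. It was read in 77.8% of P2- CMPs and 85.1% of P2+ MEPs. Gata2 (-0.28) and Mef2c (-0.07) differed little, and Etv6, an ETS factor, was at 0.84. Meis1 was read in 96.3% (81.0 to 99.9%) of P2- CMPs and 70.2% (55.1 to 82.7%) of P2+ MEPs, and its ratio was 0.48 (0.40 to 0.56). Erg, an ETS factor of stem cells and megakaryocytes, was low, at 21.3 CPM (19.2 to 23.5) in P2- CMPs against 1.30 CPM (0.932 to 1.76) in P2+ MEPs, and it was at 28.9 CPM in P2+ CMPs. It was read in 44.4% of P2- CMPs and 4.26% of P2+ MEPs.

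Most granulocyte/monocyte genes were higher in P2- CMPs. Of 11 tested, 7 were at least 2-fold higher there and 0 in P2+ MEPs (median 1.77). Spi1 ranged from 0 to 361.95 CPM per cell (median 79.3) in P2- CMPs and from 0 to 161 CPM per cell (median 0) in P2+ MEPs, so that most P2+ MEPs were below the P2- CMP median. It was read in 74.1% (53.7 to 88.9%) and 40.4% (26.4 to 55.7%) of cells, and its ratio was 2.08 (1.96 to 2.19). Myeloperoxidase (Mpo), an early granule enzyme, was read in 23 of 27 P2- CMPs, up to 925 CPM, and in 10 of 47 P2+ MEPs, up to 313.5. It was 17.04-fold higher in P2- CMPs, with a log2 ratio of 4.09 (3.94 to 4.24). Lysozyme (Lyz2) was 9.81-fold higher but had a median of only 3.52 CPM over P2- CMPs, with the highest cell at 996. Proteinase 3 (Prtn3) was 2.66-fold higher. Csf3r, the receptor of granulocyte colony-stimulating factor, was read in 10 P2- CMPs, at 31.5 CPM (29.01 to 34.2) pooled, and with 1 read in 1 P2+ MEP, a ratio of 9.96 (7.48 to 15.27). Gfi1, a repressor of granulocytic cells that too few cells carried to be tested, was at 21.3 CPM (19.3 to 23.5) in P2- CMPs and 0 reads in P2+ MEPs, at least 224.4-fold higher. Irf8, of monocytes and dendritic cells, depended on 1 cell, with 1.77 with it and 0.71 without. Csf2rb was at 2.17 and has a near-identical copy, Csf2rb2, so that its level is uncertain. Genes of later granulocytes were at or near 0 in both populations. Elane was at 0.109 CPM in P2- CMPs and 0.0317 in P2+ MEPs, and Ctsg at 0.109 and 0.0633. Cebpa was at 1.47 and 0.665 CPM, Csf1r at 0.709 CPM in P2- CMPs, and Cebpe had 0 reads in either.

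**Figure D2:**
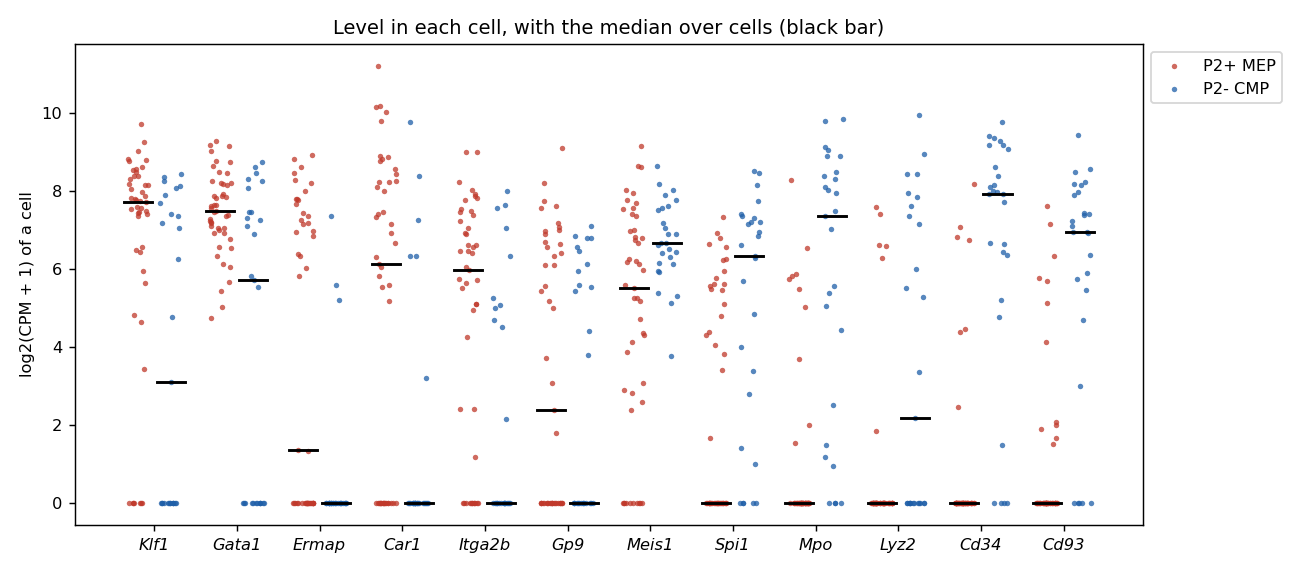
Each point is a cell, red for P2+ MEPs and blue for P2- CMPs, placed on log2(CPM + 1) of the gene named under it, and black bars are medians over cells. Klf1 and Gata1 have the higher median in P2+ MEPs and Spi1, Mpo, Cd34 and Cd93 in P2- CMPs, and each of these 6 genes has cells at the same level in both populations.

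Stem and multipotent genes showed the largest list median in the direction of P2- CMPs. Of 22 tested, 15 were at least 2-fold higher in P2- CMPs and 0 in P2+ MEPs (median 2.43). Cd34 is set by the sort and is given as a check of it, and without it 14 of 21 were at least 2-fold higher in P2- CMPs, with a median of 2.03. It was read in 23 of 27 P2- CMPs, at 274.3 CPM (266.8 to 281.98) pooled, and in 7 of 47 P2+ MEPs, at 13.05 CPM (11.8 to 14.4). Adgrl4, an adhesion receptor of endothelium and stem cells, ranged from 0 to 647 CPM per cell (median 106) in P2- CMPs and was read in 4 P2+ MEPs. It was 49.7-fold higher in P2- CMPs, with a log2 ratio of 5.63 (5.39 to 5.89). Cd93, a surface protein of early progenitors, was read in 77.8% (57.7 to 91.4%) of P2- CMPs and 14.9% (6.20 to 28.3%) of P2+ MEPs and had a ratio of 3.58 (3.43 to 3.73). The transcription factors Hlf (3.80), Hoxa9 (3.33) and Mycn (3.35) were read in 44.4%, 63.0% and 63.0% of P2- CMPs and in 10.6%, 19.1% and 17.02% of P2+ MEPs. Mecom, a stem cell factor also called Evi1, was read in 10 P2- CMPs, at 47.9 CPM (44.8 to 51.2), and with 1 read in 1 P2+ MEP, a ratio of 10.56 (8.08 to 15.87). Flt3, the receptor of multipotent progenitors with lymphoid potential, was read in 7 P2- CMPs and 0 P2+ MEPs, at least 113-fold higher, though it fell short of the limit on cells. The let-7 target and fetal stem cell gene Hmga2 was 3.15-fold higher in P2- CMPs and ranged from 0 to 619.6 CPM per cell (median 167) there against from 0 to 406 CPM per cell (median 37.5) in P2+ MEPs. Angpt1 (2.03), Msi2 (1.66), Myct1 (2.84), Tmem176b (3.01) and Egfl7 (1.23) were the other members on this side with Ifitm1 and Ifitm3, a family of similar copies whose counts are uncertain. The 7 tested members within 2-fold were Meis1, Sox4, Kit (0.49), Gata2, Bcl2, Ikzf1 (-0.81) and Lmo2.

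The promoters of 4 genes that stand for the lineages compared, Klf1, Gp9, Mpo and Cd34, are shown to give the sequence around their starts. Each runs from 250 bases before to 50 after the RefSeq start on the GRCm38.p6 build, 5′ to 3′ on the gene's strand. Capitals mark short words of the binding motifs of the factors described above, searched on both strands. They are AGATAA for GATA factors, GAGGAA for ETS factors such as PU.1 and FLI1, TGTGGT for RUNX factors and CCNCACCC for KLF factors.
Klf1 (chr8:84901732-84902031, + strand): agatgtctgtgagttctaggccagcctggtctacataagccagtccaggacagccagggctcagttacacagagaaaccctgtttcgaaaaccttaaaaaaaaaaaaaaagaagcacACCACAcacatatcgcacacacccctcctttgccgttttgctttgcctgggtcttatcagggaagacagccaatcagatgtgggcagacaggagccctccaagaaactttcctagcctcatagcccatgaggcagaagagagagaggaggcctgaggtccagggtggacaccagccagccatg
Gp9 (chr6:87777820-87778119, + strand): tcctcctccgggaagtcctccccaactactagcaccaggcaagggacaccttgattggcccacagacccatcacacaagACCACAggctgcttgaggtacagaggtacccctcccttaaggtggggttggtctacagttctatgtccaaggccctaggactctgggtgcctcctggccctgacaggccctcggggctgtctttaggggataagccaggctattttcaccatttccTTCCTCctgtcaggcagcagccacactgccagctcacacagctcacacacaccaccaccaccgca
Mpo (chr11:87793534-87793833, + strand): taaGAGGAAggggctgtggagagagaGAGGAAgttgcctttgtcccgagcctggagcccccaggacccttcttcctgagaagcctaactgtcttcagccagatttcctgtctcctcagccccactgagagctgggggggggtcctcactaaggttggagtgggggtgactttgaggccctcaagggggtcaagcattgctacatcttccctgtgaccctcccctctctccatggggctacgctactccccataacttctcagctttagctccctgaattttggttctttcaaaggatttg
Cd34 (chr1:194938571-194938870, + strand): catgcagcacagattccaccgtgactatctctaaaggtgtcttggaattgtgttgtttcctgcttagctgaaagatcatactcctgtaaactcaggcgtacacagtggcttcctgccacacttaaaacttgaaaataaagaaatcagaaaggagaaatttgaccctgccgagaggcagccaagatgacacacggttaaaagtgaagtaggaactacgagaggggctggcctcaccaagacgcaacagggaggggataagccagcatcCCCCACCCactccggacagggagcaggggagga

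Klf1 held a RUNX word 133 bases before the start. Gp9 held a RUNX word 171 bases and an ETS word 15 bases before it, Mpo had the ETS word at 2 places upstream, and Cd34 had a KLF word from base 18 after it. The GATA word was in none of the 4 windows. Of all 32851 RefSeq promoters of this length, 11.2% held the GATA word, 28.3% the ETS word, 16.8% the RUNX word and 16.6% the KLF word. The 15 genes with the lowest and the 15 with the highest ratio, listed below, were matched by symbol, with 12 of each found and a gene on chromosome 18 left out. The GATA word was found for 1 of 12 genes higher in P2+ MEPs and 1 of 12 of those higher in P2- CMPs, the ETS word for 5 and 5, the RUNX word for 2 and 2, and the KLF word for 5 and 3. A gene was counted if any of its promoters held the word, whereas the shares above are of single promoters, so that the units differ. These matches describe letters, not binding.

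Among lists of other cell types, genes of mast cells and basophils were read in part of both populations. Of 12 genes, 4 were tested and 3 of them were at least 2-fold higher in P2- CMPs. Cpa3, mast cell carboxypeptidase, was read in 9 P2- CMPs, up to 486 CPM, and in 2 P2+ MEPs, a ratio of 4.76 (4.44 to 5.09). Histidine decarboxylase (Hdc, 2.61) and Il1rl1 (1.29), the interleukin-33 receptor, were the others, Il1rl1 at 0.998 without its highest cell, while the proteases Cma1, Tpsb2 and Prss34 and the IgE receptor genes Ms4a2 and Fcer1a had 0 reads in the pair. The summed list, in which Gata2 is the most abundant gene, had a median of 229.2 CPM per cell in P2- CMPs and 182 in P2+ MEPs. Of 11 endothelial genes 5 were tested and 3 were higher in P2- CMPs, namely Esam (6.95, read in 9 P2- CMPs and 1 P2+ MEP), Eng (1.44) and Tek (1.01, and 0.77 without its highest cell), all 3 of which stem cells also carry. The summed endothelial level had a median of 217.4 CPM (range 0 to 959) in P2- CMPs and 59.5 (0 to 267.3) in P2+ MEPs. The defining endothelial genes Cdh5 and Kdr were at 0.491 and 1.36 CPM in P2- CMPs and 0.0633 and 1.36 in P2+ MEPs, and Stab2 and Lyve1 had 0 reads. Emcn and Ramp2, with 0 reads in P2+ MEPs, were at 25.6 CPM (23.4 to 28.1) and 27.8 CPM (25.4 to 30.3) in P2- CMPs, at least 269.8-fold and 292.2-fold higher, from 7 and 6 cells. Of the lymphoid list 0 of 12 genes were tested, and 9 had 0 reads in the pair, Il7r, Rag1 and Cd3e among them. Macrophage and hepatocyte lists had 1 tested gene each, Cd68 (-0.50) and Afp (0.86), both within 2-fold and of the other sign without the highest cell, and the macrophage genes Adgre1 and C1qa had 0 reads. The median summed level of the macrophage, hepatocyte and lymphoid lists was 0 CPM in both populations. Whether cells of these other types had a part in the differences was not tested.

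Some receptors and surface proteins of leukocytes were higher in P2- CMPs, and most were within 2-fold. Of 16 tested genes of cytokine receptors and their signalling, 6 were at least 2-fold higher in P2- CMPs and 0 in P2+ MEPs (median 0.42). Besides Csf3r, Csf2rb and Il1rl1 they were Il6st, the shared chain of interleukin-6 family receptors (2.48), and Socs2 (1.22) and Pim1 (1.04), targets of STAT5. Without their highest cells Socs2 was at 0.82 and Pim1 at 0.87. The kinases and STATs that the receptors share, Jak1 (0.25), Jak2 (-0.76), Stat3 (-0.04), Stat5a (-0.32) and Stat5b (-0.21), were within 2-fold. Among 15 tested antigens of the sort and of surface screening, 5 were at least 2-fold higher in P2- CMPs, Cd34 of the sort among them, and 2 in P2+ MEPs, Itga2b and Slamf1. Ptprc, which encodes CD45, ranged from 0 to 358.6 CPM per cell (median 49.98) in P2- CMPs and from 0 to 189 CPM per cell (median 0) in P2+ MEPs. It was read in 85.2% (66.3 to 95.8%) and 34.04% (20.9 to 49.3%) of cells and had a ratio of 2.08 (1.96 to 2.21). Cd48 lay just inside 2-fold at 0.94 (0.89 to 0.995), and Pecam1, which encodes CD31, at 0.04 (-0.16 to 0.24), was read in 37.04% of P2- CMPs and 25.5% of P2+ MEPs. Slamf1 encodes CD150, for which both populations were sorted positive, and was 2.61-fold higher in P2+ MEPs, at 97.2 CPM (93.8 to 101) against 37.2 CPM (34.5 to 40.1). Cd55 (0.93), Cd44 (0.26), Spn (-0.90) and Itgb1 (0.07) were within 2-fold. Ly6a, the Sca1 gene that the sort excluded, had 0 reads in the pair.

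Genes of proliferation and of handling stress differed little. All 18 DNA replication genes and all 16 mitosis genes were within 2-fold, with medians of -0.27 and 0.18. The replication licensing factor Cdt1 had the lowest ratio, -0.96 (-1.03 to -0.90), which passed 2-fold with DESeq2 size factors (-1.08), and Mcm7 and Ccne2 were the only 2 of the 18 above 0, Ccne2 not without its highest cell (-0.13). Topoisomerase 2 alpha (Top2a) leaned furthest to P2- CMPs, at 0.83 (0.79 to 0.86), and Cdc20 furthest the other way, at -0.51. The summed mitosis level per cell had a median of 2947 CPM (range 331.2 to 9561) in P2- CMPs and 2749.6 CPM (1421 to 7353) in P2+ MEPs. Immediate early genes, which dissociation can induce, had a median ratio of -0.06 over 9 tested genes, which was 0.21 with equal weight for every cell, and a median summed level of 1258 CPM in P2- CMPs and 1284 in P2+ MEPs. Zfp36, which encodes an RNA decay factor, was the exception at 1.44. Antigen presentation by MHC class I had 1 of 8 tested genes past 2-fold, the immunoproteasome subunit Psmb8 at 1.35 (1.24 to 1.47). The light chain B2m, in nearly every cell, was at 0.60.

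Across all 4419 genes that met the stricter limits, a read in at least 25% of the 74 cells and of the higher population and 50 CPM there, the 15 lowest and the 15 highest ratios were examined. The 15 lowest were Hbb-bs, Col5a1, Ermap, Cited4, Blvrb, Gm15915, Rfesd, Slc38a5, Rgs10, Car1, Ltbp1, Slc14a1, Lrrc8c, Tprkb and Samd14. Gm15915, a locus with no gene name (chr10:93674218-93683322, - strand, GRCm38), had the highest level of them, from 0 to 2674 CPM per cell (median 413) in P2+ MEPs against from 0 to 509.8 CPM per cell (median 0) in P2- CMPs, and was at 1.54 CPM in P2+ CMPs. Its ratio was -2.68 (-2.75 to -2.61). Col5a1, a fibrillar collagen chain, was read in 20 P2+ MEPs, up to 653 CPM, and in 1 P2- CMP, and was 68.0-fold higher. Its ratio of -6.09 was -5.62 without its highest cell and -5.04 with equal weight for every cell. The urea transporter Slc14a1, of the Kidd blood group, was 5.04-fold higher and read in 33.3% of P2- CMPs and 91.5% of P2+ MEPs. The amino acid transporter Slc38a5 was 5.75-fold, the signalling regulator Rgs10 5.63-fold, Ltbp1, which binds latent TGF beta, 5.37-fold and Lrrc8c, of a volume-regulated anion channel, 5.01-fold higher. Samd14 was read in 44.4% of P2- CMPs and 89.4% of P2+ MEPs, with a ratio of -2.10.

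The 15 highest included Adgrl4, Ebi3, Hbb-bt, Cd34, Lst1, Mpo, Tie1, Cd93, Serpina3g, Mycn, Hoxa9, Rgs2, Lyz2 and Ifitm3. Ebi3, a subunit of interleukins 27 and 35, was read in 18 P2- CMPs and 7 P2+ MEPs and was 27.6-fold higher (23.4% of its exon bases overlap another gene). Lst1, of leukocytes, was read in 74.1% (53.7 to 88.9%) of P2- CMPs and 8.51% (2.37 to 20.4%) of P2+ MEPs and was 19.7-fold higher. The receptor kinase Tie1 was 12.8-fold, the serpin Serpina3g 10.5-fold and Rgs2, a G protein regulator, 9.85-fold higher. All of these named genes but Tie1, Hbb-bt and Ifitm3 were higher still in P2+ CMPs, Serpina3g for example at 330.3 CPM against 208.7 in P2- CMPs.

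**Figure D3:**
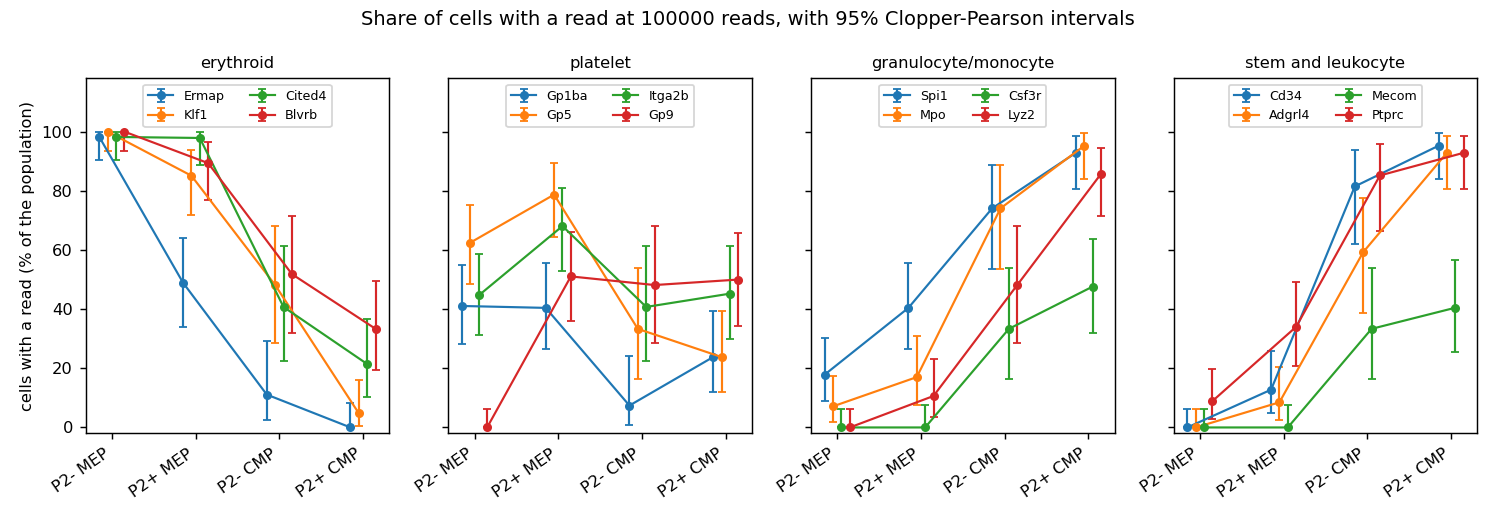
Points give the share of cells of each population with a read of a gene after thinning to 100000 reads, and bars are 95% Clopper-Pearson intervals, in panels of erythroid, platelet, granulocyte/monocyte, and stem and leukocyte genes. Ermap was read in 11.1% of P2- CMPs and 48.9% of P2+ MEPs, Gp5 had its highest share, 78.7%, in P2+ MEPs, and Mpo was read in 74.1% of P2- CMPs and 17.02% of P2+ MEPs.

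Cells of the 2 populations overlapped when whole lists were summed per cell. The 56 erythroid genes without globins had a median of 7454 CPM (range 4267 to 13687) in P2+ MEPs and 5364 CPM (range 3174 to 8684) in P2- CMPs. The range of P2+ MEPs held 21 of 27 P2- CMPs, and that of P2- CMPs held 35 of 47 P2+ MEPs. P2- MEPs had a median of 11258 CPM and P2+ CMPs of 4163. The range of P2+ CMPs held 13 of the P2- CMPs and 2 of the P2+ MEPs, and that of P2- MEPs held 1 and 21 of them. The platelet sum was 816 CPM (range 13.1 to 5431) in P2+ MEPs and 719 CPM (range 270.1 to 1721) in P2- CMPs. Without the most abundant gene of the list the medians were 607 and 322.7 CPM. The granulocyte/monocyte sum without the ubiquitous Calr was 112 CPM (range 0 to 519.7) in P2+ MEPs and 669 CPM (range 3.30 to 1558) in P2- CMPs, of which 9 lay within the P2+ MEP range. Without Mpo it was 102 and 349.7 CPM. The stem and multipotent sum was 1743 CPM (range 817 to 2854) in P2+ MEPs and 2747 CPM (range 1406 to 8972) in P2- CMPs. Without Lmo2, its most abundant gene, the medians were 1015 and 2502 CPM, and without Cd34 they were 1743 and 2662. In the plot of summed levels per cell, the P2- CMPs spread from the P2+ CMPs to the P2+ MEPs.

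**Figure D4:**
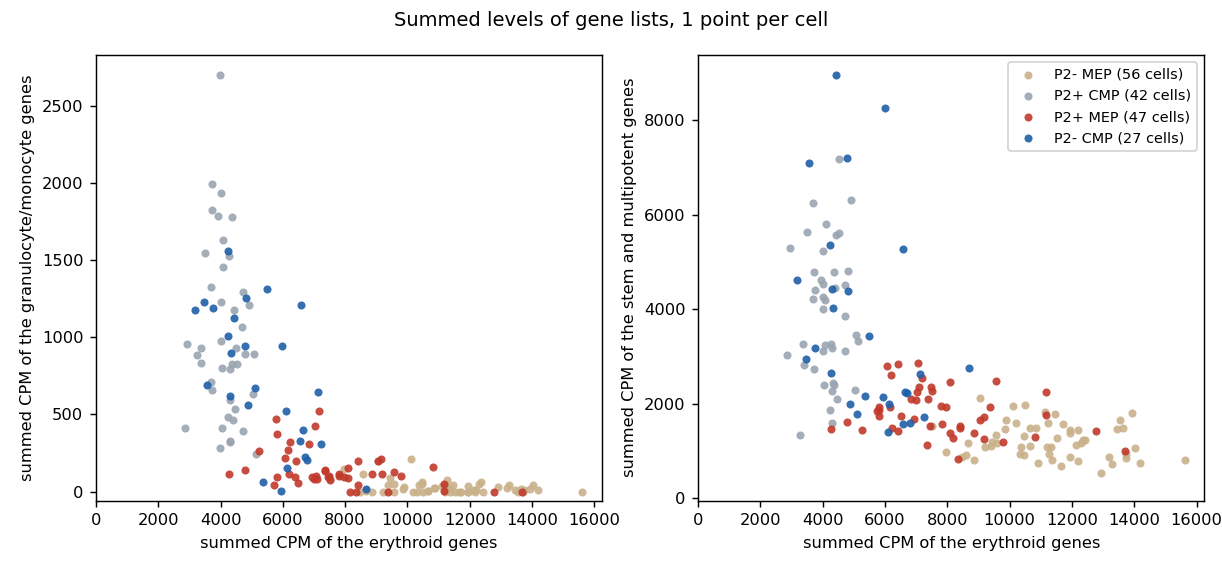
Each point is a cell, placed on the summed CPM of the 56 erythroid genes and on that of the granulocyte/monocyte genes (left) or the stem and multipotent genes (right), with red for P2+ MEPs, blue for P2- CMPs, tan for P2- MEPs and grey for P2+ CMPs. The P2- CMPs reach from the P2+ CMPs at low erythroid levels into the P2+ MEPs, with 21 of 27 inside the erythroid range of the P2+ MEPs.

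Markers of several lineages were read in the same cells, in different combinations in the 2 populations. At equal depth, 45 of 47 P2+ MEPs and 12 of 27 P2- CMPs had reads of at least 2 of 6 erythroid markers (Klf1, Epor, Gata1, Ermap, Rhag and Alas2). At least 2 of 6 megakaryocytic markers (Pf4, Itga2b, Gp9, Plek and Fli1 among them) were read in 41 of 47 and 25 of 27. At least 2 of 6 granulocyte/monocyte markers (Mpo, Elane, Prtn3, Ctsg, Csf1r and Spi1) were read in 10 of 47 and 19 of 27, and at least 2 of 5 stem and multipotent markers (Cd34, Flt3, Hlf, Mecom and Cd93) in 5 of 47 and 18 of 27. The erythroid and megakaryocytic criteria were met together by 39 of 47 P2+ MEPs and 11 of 27 P2- CMPs. The megakaryocytic and granulocyte/monocyte criteria were met together by 9 of 47 and 19 of 27, and the megakaryocytic and stem criteria by 5 of 47 and 17 of 27. Cd34 parted the populations in the sort. Without it, at least 2 of the other 4 stem and multipotent markers were read at equal depth in 0 of 47 P2+ MEPs and in 14 of 27 P2- CMPs. The Clopper-Pearson upper limit for the 0 is 7.55% of cells with such reads, and not of cells that carry the RNA. All 14 P2- CMPs met the megakaryocytic criterion. Within the P2- CMPs, all 19 cells that met the granulocyte/monocyte criterion also met the megakaryocytic one, and 6 of them the erythroid one. Since 25 of the 27 P2- CMPs met the megakaryocytic criterion, overlaps with it are near what that share gives. In P2+ CMPs, 40 of 42 cells met the megakaryocytic and granulocyte/monocyte criteria together. The megakaryocytic and stem criteria, with Cd34 counted, were met together by 39 of those 42. Klf1 and Spi1 were read together in 6 P2- CMPs, Klf1 without Spi1 in 7 and Spi1 without Klf1 in 14, which accounts for all 27. In P2+ MEPs, 15 cells had both, 25 Klf1 alone, 4 Spi1 alone and 3 neither. For Klf1 and Gp9 the numbers were 20 with both, 20 with Klf1 alone, 4 with Gp9 alone and 3 with neither in P2+ MEPs, and 8, 5, 5 and 9 in P2- CMPs. Meis1 was read in all 13 P2- CMPs that had Klf1 and in 28 of the 40 P2+ MEPs that did. These shares are near those over all cells, 96.3% of P2- CMPs and 70.2% of P2+ MEPs. Since no doublet call could be made from sorted wells without identifiers, wells with more than 1 cell were not examined.

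The position of the pair between the ends of the order was then examined. Of 9654 genes tested over the 4 populations, 2617 differed at least 2-fold between P2- MEPs and P2+ CMPs, and for 1414 of them (54.03%) both P2+ MEPs and P2- CMPs lay between the ends. In 1153 of the 1414 (81.5%) the P2+ MEPs were the nearer to the P2- MEPs, and in the rest the P2- CMPs were. With the level in P2- MEPs set to 0 and that in P2+ CMPs to 1 on the log2 scale, the median position was 0.42 for P2+ MEPs and 0.83 for P2- CMPs. For the 824 genes higher in P2- MEPs the medians were 0.25 and 0.59, and for the 1793 genes higher in P2+ CMPs they were 0.52 and 0.90.

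**Figure D5:**
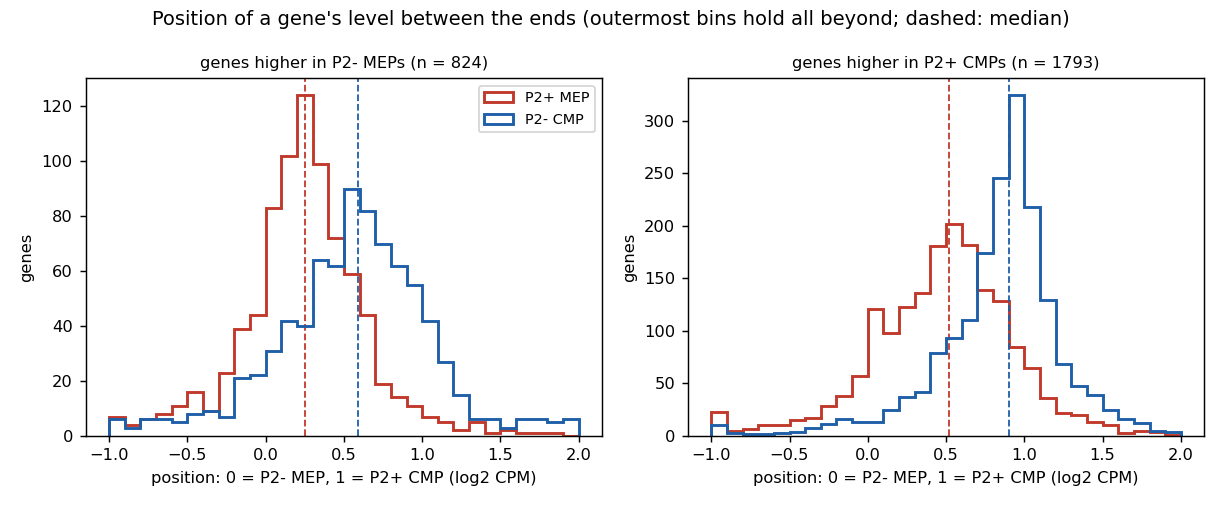
Histograms give the position of each gene's pooled level in P2+ MEPs (red) and P2- CMPs (blue) between P2- MEPs (0) and P2+ CMPs (1) on the log2 CPM scale, for 824 genes higher in P2- MEPs (left) and 1793 higher in P2+ CMPs (right). Dashed lines are medians, at 0.25 and 0.59 on the left and 0.52 and 0.90 on the right, and the outermost bins hold all genes beyond them.

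Not every gene followed the order. Of the 9654 genes tested over the 4 populations, P2+ MEPs were at least 2-fold above each of the other 3 for 54 (0.559%) and below each for 184. P2- CMPs were above each for 142 (1.47%) and below each for 164 of the 9654. Of the 11 genes that met the stricter limits for a P2+ MEP peak, the 8 with the largest ratio to the next population were Rabgap1l, Emilin2, Rbpms2, Car1, Itga2b, Gp5, Itga5 and Tgfbr3. Emilin2, an extracellular matrix glycoprotein, was at 226.9 CPM (221.7 to 232.2) in P2+ MEPs, against 71.4 CPM in P2- MEPs, 65.8 in P2- CMPs, and 60.9 CPM in P2+ CMPs. Rabgap1l, a regulator of Rab GTPases, was at 179 CPM (175 to 184) in P2+ MEPs and at 46.4 to 53.01 in the others. The integrin chain Itga2b was at 103 CPM in P2+ MEPs and 32.02 to 39.1 elsewhere, the fibronectin receptor chain Itga5 at 64.6 and 22.03 to 29.7, and the platelet glycoprotein Gp5 at 72.9 and 13.01 to 32.1. Tgfbr3, the TGF beta co-receptor betaglycan, was read in 91.5% of P2+ MEPs. Of the 10 genes that met them for a P2- CMP peak, the 8 included P2rx4, Cyld, Kat5, Erlec1, Itm2a, Hk2 and Twf1. The highest level among them was that of hexokinase 2 (Hk2), at 108 CPM (103 to 112) in P2- CMPs and 40.2 to 48.98 in the others. The ATP-gated channel P2rx4 was at 66.6 CPM (63.0 to 70.5) against 17.5 to 20.3, and the membrane protein gene Itm2a at 71.7 CPM (67.8 to 75.6) against 12.1 to 30.9. Without the highest cell, the ratio to P2+ MEPs fell from 1.90 to 1.28 for Erlec1 and from 1.31 to 1.14 for Hk2. That of Itga5, a P2+ MEP peak, went from -1.55 to -1.42. Whether each peak stayed 2-fold above all 3 other populations without that cell was not tested. The P2- CMPs had the fewest cells, 27, so that a single cell weighed most in them.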

How the data were processed

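Per the labels and methods, reads had been trimmed (Trimmomatic 0.36), mapped to GRCm38 with ERCC added (STAR 2.4.2a) and assigned to exons of GENCODE genes without regard to strand (HTSeq 0.6.1p1). The files the authors deposited hold raw read counts, 1 per gene and cell (49585 mouse and 92 ERCC features) and, per cell, unmapped reads as a percent of all reads. 5 rows of HTSeq tallies were left out (26.4% of uniquely mapped reads were ambiguous and 8.27% on no gene), and genes with near-identical or antisense copies are uncertain. Cells were required to have 250000 reads, at most 25% unmapped and at most 15% ERCC reads, which left 172 of 175. 0 cells had identical counts. From the counts, pooled CPM, log2 ratios without a pseudocount, and shares after thinning to 100000 reads were computed (Python 3.11.15, pandas 2.3.3, scipy 1.17.1), and checked on simulated data. A population at 0 was set to 3 reads in all, and the ratio called a bound. For the positions between the ends of the order, any pooled CPM below a fixed low floor was raised to it, with or without reads. DESeq2 1.42.0 in R 4.3.3 gave size factors as an alternative scaling only. No test was made, since each population is 1 sample. The members and the 19 gene lists were chosen with earlier results of these data known. 1 listed symbol, Ahsp, had no row. Genes named are those of the lists, the 15 highest and 15 lowest ratios and the 8 peak genes of either population under the limits given in the report, and not every one is named, since some are not reported here. Promoters are from RefSeq on GRCm38.p6, chosen, with the words searched, after values were seen. The alternatives were another scaling, equal weight for every cell, other cells, limits, fold, denominator and depths.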

Additional observations from a re-analysis of the deposited data

How the results depend on the processing

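No paired analysis was possible because each population is 1 pooled sample. The counts of genes at least 2-fold higher in P2- CMPs and in P2+ MEPs, 1051 and 583, are 11.1% and 6.16% of the genes tested. They were 6.48% and 3.28% of 6740 genes with a mean CPM of at least 20, 16.7% and 11.48% of 14706 genes with at least 1 read in each population as the only limit and 3.39% and 1.36% at 4-fold. Leaving out the cell of highest CPM of the higher population, which can only lower the level there, gave 6.85% (649) for P2- CMPs. Leaving it out of both, which was chosen after seeing the data, gave 9.65% (914) for P2+ MEPs. The cause was not tested. With DESeq2 size factors, equal weight for every cell, every deposited cell, without the cell of conflicting label or without mitochondrial genes and Rn18s-rs5, each count stayed within 1.5 times its value. DESeq2 size factors moved the median log2 ratio of all genes from 0.02 to -0.09 and gave 926 and 740. The summed erythroid level of P2+ MEPs, 7454 CPM, was 8377 without mitochondrial genes and Rn18s-rs5 in the denominator and 6562 without Fth1. That of P2- CMPs, 5364, was 4219 without Fth1, and the platelet level of P2- CMPs, 719, was 322.7 without the most abundant gene of its list. The share of P2+ MEPs with a read of Esam was 0% at 50000 reads, and that of P2- CMPs with Meis1 was 100% at 200000 reads and without thinning. The other 175 values under the alternatives for these results stayed within their interval, or within 1.5 times for a count. The intervals of sums over cells are wide, and within them the granulocyte/monocyte level of P2- CMPs went from 669 to 349.7 CPM without Mpo and the platelet level of P2+ MEPs from 816 to 607 without the most abundant gene of its list. Of 1254 log2 ratios of named genes under alternatives, 29.3% moved beyond their counting interval, and 0 of those past 2-fold changed sign. The share was 62.7% without the cell of highest CPM, 52.2% with equal weight, 49.3% with DESeq2 size factors, 11.48% without the cell of conflicting label and 0% under the other 2. Leaving Cd34 out of the stem and multipotent genes, given above, was also chosen after seeing the data. Depth limits statements on genes at 0, where up to 0.0950 CPM in P2+ MEPs and 0.164 CPM in P2- CMPs are allowed.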

Other observations

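The split of beta globin reads between Hbb-bs and Hbb-bt followed MEP and CMP rather than the P2 reporter. Over single cells, more reads fell on Hbb-bs than on Hbb-bt in 18 of the 47 P2+ MEPs and fewer in 10, with 19 cells at 0 for both, and the numbers in the 56 P2- MEPs were 21, 12 and 23. In P2- CMPs 0 of 27 cells had more reads on Hbb-bs and 15 had more on Hbb-bt, and in P2+ CMPs 0 and 35 of 42 did. Of the summed reads, Hbb-bs took 87.3% in P2- MEPs and 0.499% in P2+ CMPs, close to the values of P2+ MEPs and P2- CMPs given above. Plate, embryo and haplotype cannot be told apart from the sort here either. This comparison was chosen after the values were seen. Some genes that mark later or other cells were read in few cells. All albumin reads of the P2- CMPs came from 1 cell, at 317.8 CPM. Lck, a kinase of T cells, was read in 4 P2- CMPs, up to 261.1 CPM, and in 2 P2+ MEPs.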
